A study of Mus musculus with 6 samples.

Results

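Gpx3 encodes plasma glutathione peroxidase, a secreted selenoprotein, and its 5′-monophosphate RNA ends were followed through 6 mouse tissues. The gene was taken as the plus strand of chromosome 11 from 54715001 to 54725000 (mm9 coordinates here and below), a region of 10 kb, and every tag whose 5′ end lay there was a member. This was 1 region of 52925 strand-specific regions of that length with a tag in any library. It held 4014 tags on 548 distinct ends, of 839877 tags on 449338 ends in all. The region was chosen by its high tag count in kidney, so its levels by tissue are a description.

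Glutathione peroxidases reduce hydrogen peroxide and lipid hydroperoxides with glutathione, and several of them carry selenocysteine in the active site. Selenocysteine is encoded by UGA, otherwise a stop codon, and is inserted only when the 3′ untranslated region of the mRNA holds a hairpin called the SECIS element. Most of the enzyme found in plasma is made by the proximal tubule of the kidney.

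The libraries were made by parallel analysis of RNA ends (PARE), in which an adaptor is ligated to 5′ monophosphates of polyadenylated RNA and a short tag next to it is sequenced. Whole kidney, lung, liver, brain, ovary and spleen of adult mice of BALB-c background gave 1 library each. No source used here gives the number of animals, their sex or any pooling, and no treatment or genetic change is named for any tissue. Uniquely listed tags numbered 162270 in kidney, 493121 in lung, 78952 in liver, 33382 in brain, 29213 in ovary and 42939 in spleen. With 1 library per tissue no test between tissues was made. Levels are tags per 1000000 unique tags (CPM). Exact 95% intervals are given. They cover no more than counting error, and not the spread between libraries of a tissue. Tags were amplified by PCR before they were counted, so reads of an end may depend on each other and the intervals may be too narrow.

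The tissue labels were set against marker genes through tags that match the first bases of a RefSeq transcript. Tags at the start of Kap, the androgen-regulated protein of the kidney tubule, numbered 1021 in kidney, 137 in lung, 1 in liver, 0 in brain, 2 in ovary and 3 in spleen. Miox, an enzyme of renal inositol breakdown, had 9 kidney tags and none elsewhere. The other 5 kidney markers, Umod, Lrp2, Slc34a1, Aqp1 and Slc22a6, had no tag at their start in any library, and start tags of the 7 markers summed to 1030 in kidney and to between 0 and 137 in the other libraries. Of the lung markers, the surfactant gene Sftpa1 had 23 tags and Ager, a receptor of the alveolar epithelium, had 5, all in lung. Sftpb had no tag at its start in any library, and Scgb1a1 and Sftpc had no start sequence to match. No start tag of a liver, brain, ovary or spleen marker was found, so those labels were not checked. The Kap tags in lung are set beside the lung value of Gpx3 below, and a link between the values was not tested.

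A few short sequences show where the gene begins, how it is read and where its ends fall. The one at the top is the whole tag that ties the region to the RefSeq transcript. Below it are the TGA and TAA triplets discussed with the reading frame, in capitals. The next 4 are ends described below, with the 5 bases before the end in lower case and the 20 bases of the tag in capitals.
Start of Gpx3, 54716362 to 54716382: ccccgcctggctgcggattgg
TGA triplet, 54720744 to 54720773: acgtagccagctacTGAggtctgacagacc
TAA triplet, 54723144 to 54723167: gcgccagggggaagTAActgatgc
End at 54723785: gggacACTACCCCCGCGCCTCTGGA
End at 54723831: tgtccACTGGTATCTCAACACCCCC
End at 54723859: tgcccAGTAAAGGTCTTTCTGCAGC
End at 54723637: caagaCAACTGTGAGCGCGATGGCC

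The first of these tags, a single kidney tag at 54716362, matched the RefSeq transcript start of Gpx3 (gene ID 14778, build GRCm38.p6) and began at base 7 of the transcript. The remaining bases are those most frequent among overlapping tags at each mm9 position. They therefore come from the BALB-c reads and not from a reference genome. At least 4 tags covered each of those bases, and at least 92.3% of them read the same letter.

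Ends of Gpx3 were far more frequent in kidney than in any other tissue. Kidney had 2732 tags, or 16836 CPM (16211 to 17480), which was 1.68% of the library. Lung had 1246 tags and 2527 CPM (2388 to 2671). Ovary followed with 22 tags and 753 CPM (472 to 1140). Spleen had 7 tags and 163 CPM (65.5 to 336), liver 5 tags and 63.3 CPM (20.6 to 148), and brain 2 tags and 59.9 CPM (7.26 to 216).

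Kidney exceeded lung 6.66-fold (6.23 to 7.13), ovary 22.4-fold (14.7 to 35.7) and spleen 103-fold (50.1 to 257). Further down the order, lung lay 3.36-fold above ovary (2.21 to 5.37) and ovary 4.62-fold above spleen (1.91 to 12.8). Spleen over liver was 2.57 (0.703 to 10.3) and liver over brain 1.06 (0.173 to 11.1), so these neighbours did not differ beyond counting error. With the trimmed mean of M values in place of total tags, kidney lay 39.3-fold (25.9 to 62.8) above ovary and lung 5.54-fold (3.64 to 8.88) above ovary. Under that scaling kidney over spleen was 153 and liver over brain 1.90 (0.311 to 19.9). The 3 counts that a count of 0 allows equal 89.9 CPM in brain, which is above its level, and 38.0 CPM in liver. Among regions of 10 kb with at least 20 kidney tags, 20.6% were higher in kidney than in the next library by more than counting error. Gpx3 was chosen for that contrast, and nothing is read from its place among them.

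By tags, Gpx3 was the 3rd strongest region of kidney among 22805 regions with a tag. It ranked 24th in lung, 63rd in ovary, 903rd in spleen, 1810th in liver and 2974th in brain. In whole tissues fewer cells of a type and less RNA per cell cannot be told apart, and the amount of Gpx3 mRNA was not measured beside its ends. Kap start tags, a kidney marker, gave a kidney to lung ratio of 22.6 (18.9 to 27.3). Kap was counted at its transcript start only and Gpx3 over its whole region, so their ratios are of unlike parts. A link of the Kap tags to the lung level of Gpx3 was not tested.

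**Figure D1:**
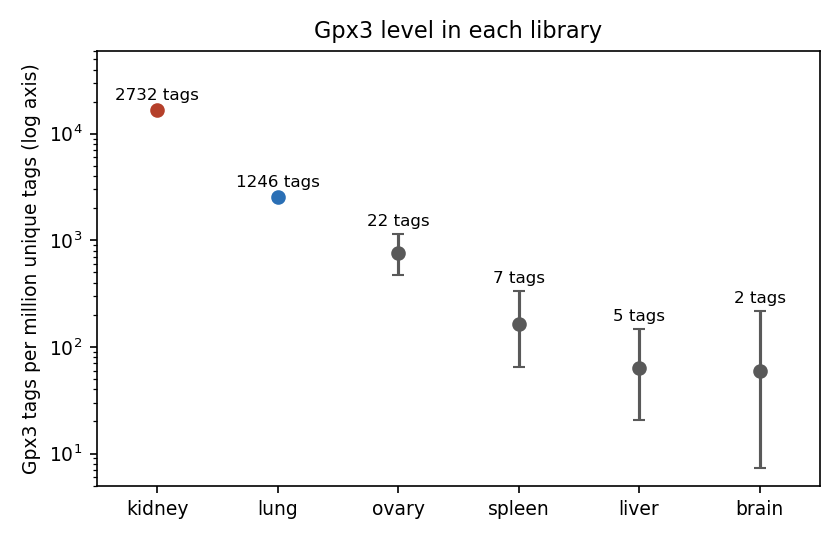
Gpx3 tags per 1000000 unique tags (CPM) in each library on a log axis, with exact 95% Poisson intervals and the number of tags above each point. Kidney stands at 16836 CPM and lung at 2527 CPM, and the intervals of spleen, liver and brain overlap.

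The ends fell on 5 stretches separated by gaps of 4112, 1286, 410 and 321 bases, where a stretch was a run of ends at most 60 nt apart with at least 10 tags. Such a layout is that of exons and introns, although no mm9 annotation was used and the exon borders are not known to the base. Stretch 1 ran from 54716425 to 54716526, stretch 2 from 54720639 to 54720763, stretch 3 from 54722050 to 54722131, stretch 4 from 54722542 to 54722618 and stretch 5 from 54722940 to 54723868. The region held 9 other tags, 2 of them in the gap of 1286 bases. A tag that crosses a splice junction does not align to the genome in 1 piece, so ends just before a junction are not counted.

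The sequence read from the tags gave a reading frame for 3 of the stretches. In stretch 2 every frame held a stop triplet, and 1 frame held no other than the TGA shown above at 54720758. In stretch 4 a single frame was without a stop triplet. In stretch 5 a single frame ran open from the first end to the TAA at 54723158, whereas the other frames held 10 and 12 stop triplets. In stretches 1 and 3 all 3 frames were without one. The selenocysteine of this enzyme is encoded by a TGA, and the frame of stretch 2 that holds it was used below. The bases after the TAA are called the 3′ untranslated region. That region could be read over 727 bases, 2 of which no tag covered, down to base 54723887.

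Most Gpx3 ends lay in the 3′ untranslated region. In kidney 2410 of 2732 tags began there (88.2%, 86.9 to 89.4), and in lung 1208 of 1246 (97.0%, 95.8 to 97.8). Ovary had 20 of 22 tags in it, spleen 6 of 7, liver 3 of 5 and brain 2 of 2. Kidney tags before the stop numbered 25 in stretch 1, 99 in stretch 2, 69 in stretch 3, 40 in stretch 4 and 82 in stretch 5. The matching lung counts were 5, 12, 7, 3 and 9. Both deep libraries thus had ends in all 5 stretches, and these were densest near the 3′ end rather than from the stop on. Stretch 2 had 99 kidney and 12 lung tags over 125 nt. In the 3′ untranslated region, 55 kidney and 5 lung tags began from 600 to 699 nt before the last base read. From 0 to 99 nt before it the counts were 886 and 689.

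The excess of kidney over lung was not the same along the gene. Before the stop, kidney had 315 tags (1941 CPM) and lung 36 tags (73.0 CPM), a ratio of 26.6 (18.8 to 38.7). In the 3′ untranslated region kidney had 14852 CPM and lung 2450 CPM, a ratio of 6.06 (5.66 to 6.50). Among the stretches before the stop the ratio lay between 15.2 (5.71 to 50.8) in stretch 1 and 40.5 (12.9 to 205) in stretch 4, and their intervals overlap.

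Within the 3′ untranslated region the ratio was lower still at its end. From 600 to 699 nt before the last base read it was 33.4 (13.5 to 107), with 55 kidney and 5 lung tags. From 500 to 599 nt it was 11.3 (6.33 to 21.6), with 56 kidney and 15 lung tags. From 400 to 499 nt it was 12.0 (7.84 to 19.1), with 107 kidney and 27 lung tags. From 300 to 399 nt it was 9.28 (6.81 to 12.8), with 168 and 55 tags. From 200 to 299 nt it was 9.42 (7.59 to 11.8), with 347 and 112 tags. The intervals from 200 to 599 nt overlap, so no steady fall is read between them. From 100 to 199 nt it was 7.74 (6.77 to 8.86), with 774 and 304 tags. In the last 100 bases, from 0 to 99 nt, it was 3.91 (3.53 to 4.32), with 886 kidney and 689 lung tags. The kidney to lung ratio of Gpx3 therefore depends on which part of the transcript is counted.

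**Figure D2:**
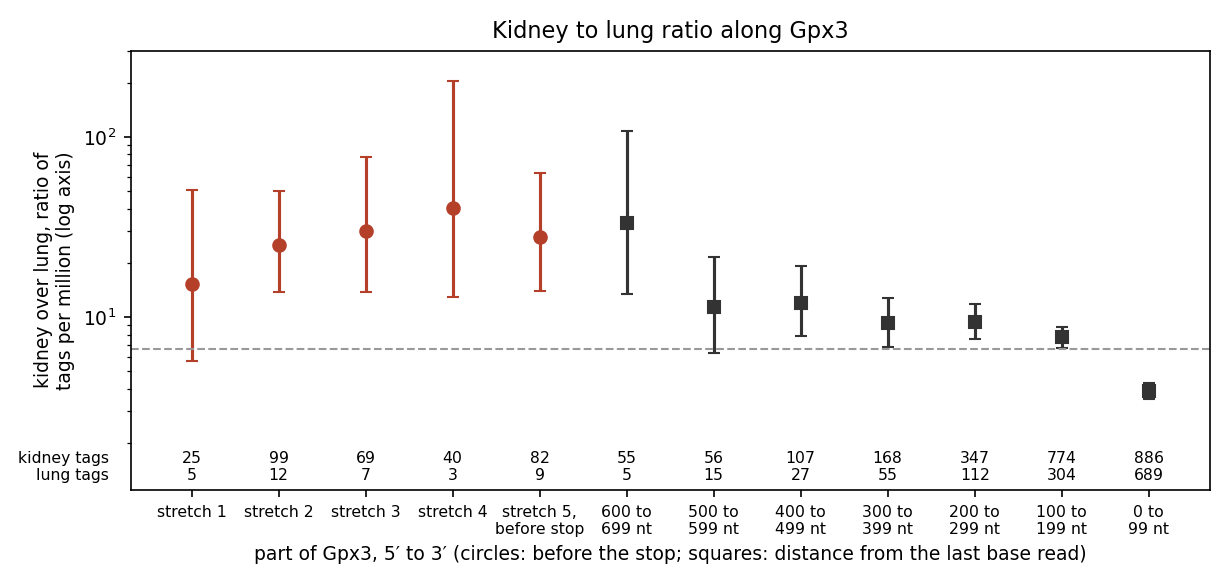
Ratio of Gpx3 levels in CPM, kidney over lung, on a log axis by part of the gene from 5′ to 3′, with exact 95% intervals, the tag counts of both libraries below each point and the ratio of the whole region as a dashed line. Parts before the stop lie between 15.2 and 40.5, and the last 100 bases lie at 3.91, below the dashed line at 6.66.

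The same difference appeared in the position of the tags. In stretch 5 the median kidney tag began 126 nt before the last base read and the median lung tag 90 nt before it. Tags within the last 60 nt made up 417 of 2492 in kidney (16.7%, 15.3 to 18.3) and 369 of 1217 in lung (30.3%, 27.7 to 33.0). Ovary had 5 of 20 tags there (25.0%, 8.66 to 49.1), which overlaps both.

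Lung ends also lay further 3′ than kidney ends in most other places where both libraries were deep. In windows of 2 kb with at least 100 tags in both, the mean end lay further 3′ in lung in 51 of 58 windows other than that of Gpx3 (87.9%), by a median of 26.2 nt. The Gpx3 window, introns included, had a difference of 116 nt, more than 47 of the 58. The shift is thus found across the 2 libraries and is not particular to Gpx3. Its cause was not tested.

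**Figure D3:**
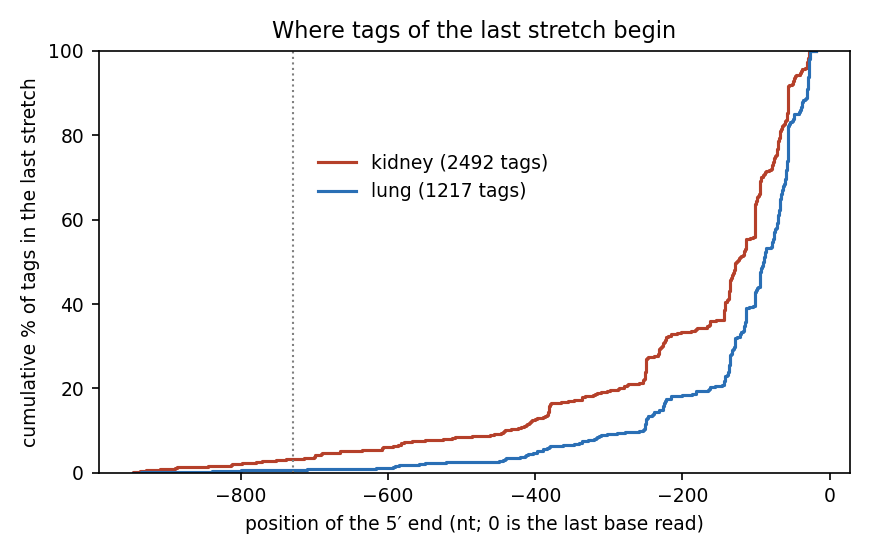
Cumulative share of the tags in stretch 5 (vertical axis, percent) by the position of their 5′ end in nt, where 0 is the last base read and the dotted line marks the stop triplet. The kidney curve (2492 tags) rises earlier than the lung curve (1217 tags), with medians 126 and 90 nt before the last base.

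No single end dominated Gpx3. The 10 strongest ends over the 6 libraries all lay in the 3′ untranslated region and held 680 kidney tags (24.9%, 23.3 to 26.6) and 315 lung tags (25.3%, 22.9 to 27.8). In kidney the tags fell on 506 ends, of which 68 had at least 10 tags and 207 had 1 tag. In lung they fell on 250 ends, of which 39 had at least 10 tags and 117 had 1 tag. Thinned to the 1246 tags of lung, kidney would have 352 ends. The strongest end took 7.11% of the kidney tags of its window of 2 kb, and among 96 other windows with at least 100 kidney tags the median was 10.96%, with quartiles of 5.83% and 48.0%.

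The strongest end lay at 54723785, 102 nt before the last base read, with 185 kidney tags, 38 lung tags and none in the other libraries. It held 6.77% of kidney Gpx3 tags (5.86 to 7.78) and 3.05% of lung Gpx3 tags (2.17 to 4.16). Its level was 1140 CPM in kidney and 77.1 CPM in lung, a ratio of 14.8 (10.4 to 21.6). This end was the first in kidney but not in lung.

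The strongest lung end was at 54723831, 56 nt before the last base, with 105 kidney, 53 lung, 3 spleen and 1 liver tags and no tag in brain or ovary. Its ratio of kidney over lung was 6.02 (4.29 to 8.54), near that of the whole gene. The neighbouring bases 54723830 and 54723829 were also among the 10, with 57 and 38 kidney tags, against 49 and 27 lung tags. The 3 spleen tags at 54723831 were the only case, outside kidney and lung, of an end with at least 3 tags in a single library.

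The lowest ratio of the 10 was that of the end at 54723859, although its interval overlaps that of 54723830 (2.37 to 5.29). Neighbouring ends had 13 kidney and 14 lung tags at 54723857, 11 and 19 at 54723858, and 6 and 24 at 54723860. A low ratio was thus not particular to this base. The end at 54723859 had 34 kidney, 51 lung, 1 brain and 1 ovary tags, with none in liver or spleen. Its levels were 209.5 CPM in kidney and 103 CPM in lung, a ratio of 2.03 (1.27 to 3.19). It held 1.24% of kidney Gpx3 tags (0.863 to 1.73) and 4.09% of lung Gpx3 tags (3.06 to 5.35). Its tag opens with the letters AGTAAA, a known variant of the polyadenylation signal, which also occurred nowhere else on either strand in the last 300 bases read. The letters AATAAA and ATTAAA were not in that window on either strand, so no searched motif overlapped another. Of 32851 RefSeq promoter sequences of the same length (GRCm38.p6), 12.1% hold AGTAAA on either strand, 19.6% AATAAA and 13.9% ATTAAA. On their own strand, the kind of strand on which the Gpx3 letters lay, 6.61% hold AGTAAA. Promoters are not 3′ ends, so these shares may not be those of 3′ ends.

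Ends were dense up to these letters and nearly stopped after them. In the 60 nt before them 687 kidney tags (25.1% of Gpx3 tags) and 519 lung tags (41.7%) began. On the 6 bases themselves 42 kidney and 76 lung tags began (1.54% and 6.10%), and from there to the last end at 54723868, 9 nt after the first of these letters, 1 kidney and 0 lung tags. A tag of about 20 nt that runs into the poly(A) tail does not align, so ends nearer to the tail could not be seen.

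Further 5′, the end at 54723637, 250 nt before the last base, had 67 kidney tags and 11 lung tags and no other. Its ratio of 18.5 (9.71 to 38.8) was the highest of the 10. The remaining ends, at 54723751, 54723750, 54723817 and 54723793, had 45 to 53 kidney tags and 19 to 23 lung tags, with ratios from 5.95 to 7.67. Ovary had 1 tag at 54723750. Across the 10 ends the ratio thus ran from 2.03 to 18.5, and the intervals of the lowest and the highest do not overlap.

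**Figure D4:**
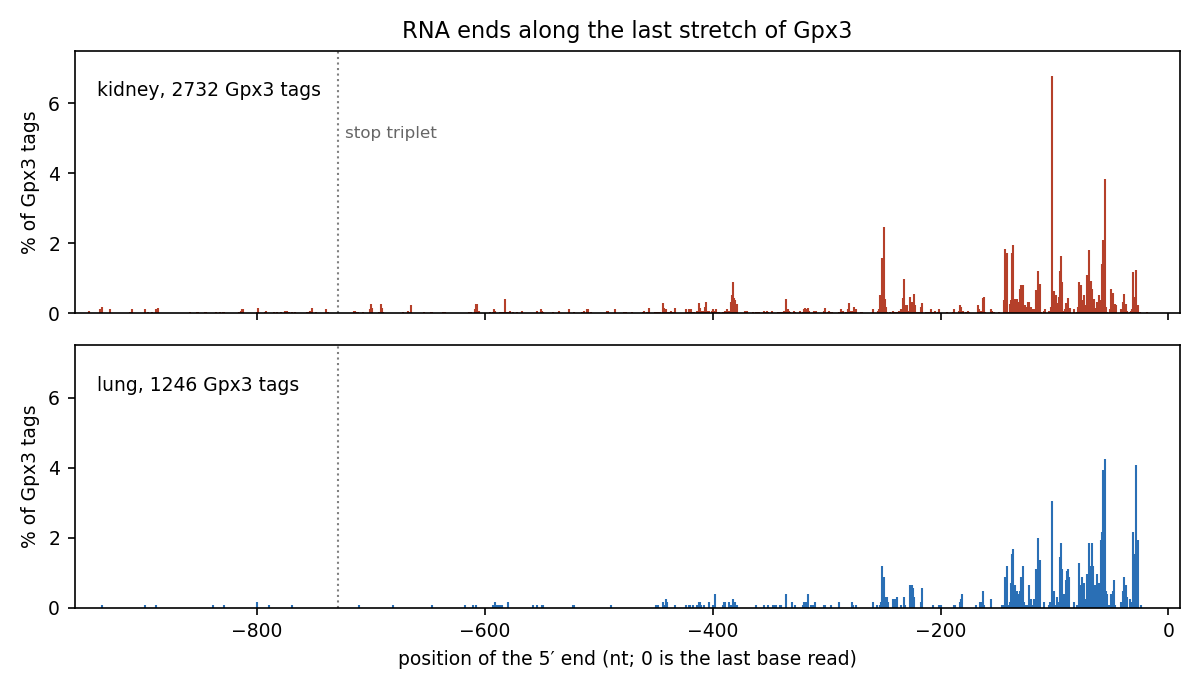
Share of each library's Gpx3 tags (vertical axis, percent) that begin at each position of stretch 5, in kidney (top) and lung (bottom), where 0 is the last base read and the dotted line marks the stop triplet. The end 102 nt before the last base reaches 6.77% in kidney and 3.05% in lung, and the end 28 nt before it reaches 1.24% in kidney and 4.09% in lung.

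Many lung ends were also kidney ends. Of 250 lung ends 210 were also kidney ends (84.0%), which is 41.5% of the 506 kidney ends. These shared ends held 2119 kidney tags (77.6%) and 1204 lung tags (96.6%). Kidney ends were dense, however, and lay on 138 of the last 200 bases up to the last end (69.0%), where 1005 of the 1246 lung tags began. There 109 of 116 lung ends were also kidney ends (94.0%). Over all of stretch 5, 192 of 222 lung ends were also kidney ends (86.5%), and 41.8% of its bases had a kidney end. Both overlaps lie above the share of bases with a kidney end. An overlap at such density does not by itself show a shared choice of ends. Such a choice was not tested, and none is read from the overlap.

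Before the stop, ends of stretch 2 gathered in its last part, just upstream of the TGA triplet. In stretch 2, 68 of 99 kidney tags (68.7%, 58.6 to 77.6) began in the 30 nt before it, against 16 tags from 60 to 31 nt before it and 14 tags from 120 to 61 nt before it. Lung had 7, 3 and 2 tags in the same ranges. The neighbouring ends at 54720731 and 54720732, 27 and 26 nt before the TGA, held 12 and 16 kidney tags, 1 liver tag and no lung tag, and were singled out after their values were seen. Together they amounted to 173 CPM in kidney, and a count of 0 allows 6.08 CPM in lung. All of stretch 2 had a kidney to lung ratio of 25.1 (13.7 to 50.2), so no difference between the pair and the stretch is read from the missing lung tags. Without them 40 of 71 kidney tags lay in the 30 nt. The last end of the stretch lay 5 nt after the first base of the TGA, and the last base read lay 24 nt after it. Tags that cross a splice junction do not align in 1 piece. Where the exon ends was not located, so ends after the TGA could not be compared with those before it. Whether the place of these ends has to do with the TGA was not tested.

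The other stretches before the stop had no end of more than 10 kidney tags. The strongest were 54716481 with 3 kidney tags in stretch 1, 54722053 with 10 in stretch 3 and 54722543 with 10 kidney tags and 1 lung tag in stretch 4. Ends in the 3 stretches with a known frame showed no codon position above an even share by more than counting error. Of 221 kidney tags, 75 began at position 1 of a codon (33.9%, 27.7 to 40.6), 81 at position 2 (36.7%, 30.3 to 43.4) and 65 at position 3 (29.4%, 23.5 to 35.9). All 3 intervals include an even share. Lung had 4, 7 and 13 tags, too few to read an order from.

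Counted by tags, the bases around the ends of stretch 5 differed from those of its whole sequence. The part near its end, where tags were densest, was not compared by itself. The base before the end was C for 55.1% of kidney tags (53.2 to 57.1) and 57.2% of lung tags (54.4 to 60.0), while C made up 33.1% of the 946 bases read. The first base of the tag was G for 5.58% of kidney tags (4.71 to 6.55) and 7.07% of lung tags (5.69 to 8.65), against 23.5% of the bases read. Over all genes G opened 9.27% of kidney tags and 10.1% of lung tags, so few tags with a first G were found throughout both libraries. First bases of C made up 42.1% of kidney tags and 46.8% of lung tags in the stretch.

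Tags that open with A were 30.9% in kidney (29.1 to 32.8) and 22.8% in lung (20.4 to 25.2). Without the strongest end they were 25.2% in kidney (23.5 to 27.1) and 20.4% in lung (18.2 to 22.9). Ends between C and A held 540 of 2488 kidney tags (21.7%, 20.1 to 23.4) and 211 of 1217 lung tags (17.3%, 15.3 to 19.6), whereas CA made up 9.51% of the neighbouring bases. Without the end at 54723785 the shares were 15.4% in kidney and 14.7% in lung, with overlapping intervals, so the difference between the libraries rested on that end. This pair was looked at after the strongest ends had been seen, and the ends at 54723785, 54723831 and 54723859 are of this kind. Counting each distinct kidney end once, CA ends were 11.4% of 386, the base before was C in 39.6% and the first base G in 10.9%.

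**Figure D5:**
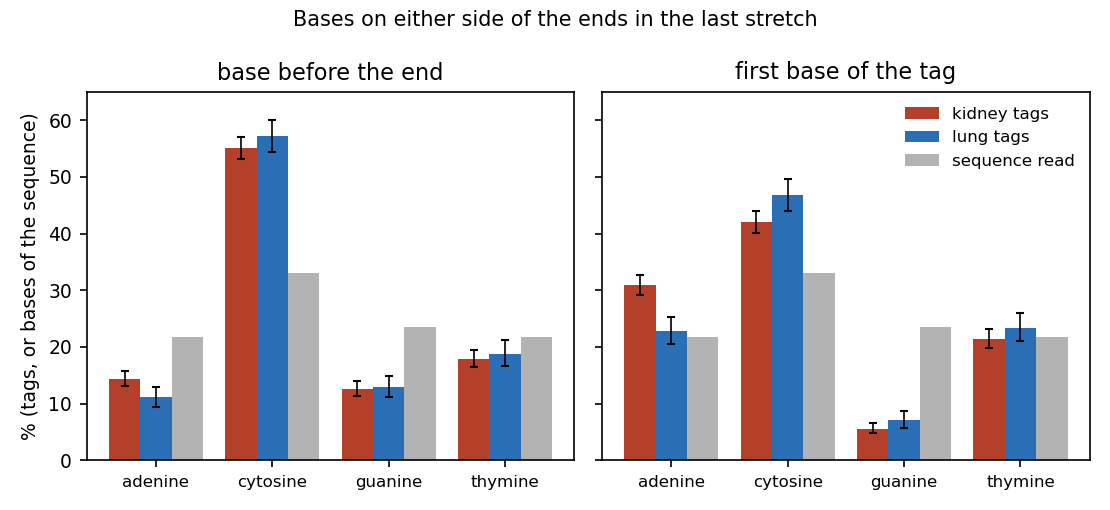
Share (percent) of each base just before the end (left) and as the first base of the tag (right) for kidney tags, lung tags and the sequence read in stretch 5, with exact 95% intervals on the tag bars. Cytosine precedes 55.1% of kidney and 57.2% of lung ends and makes up 33.1% of the sequence, and guanine opens 5.58% and 7.07% of tags and makes up 23.5%.

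Regions with the most similar pattern over the 6 libraries were taken by Pearson correlation of log2(CPM + 10) among 1020 windows of 2 kb with at least 100 tags. The points share libraries and depths, and the correlations are a description over 6 values. The closest window lay on the minus strand of chromosome 19 from 8954001 to 8956000 (r = 0.989) and holds tags at the RefSeq start of Uqcc3, an assembly factor of a respiratory complex. Its levels were low, at 160 CPM in kidney, 132 CPM in lung and between 59.9 and 103 CPM elsewhere. They came from 26 kidney, 65 lung, 5 liver, 2 brain, 3 ovary and 3 spleen tags. The brain, ovary and spleen counts do not exceed the 3 counts allowed where no tag is seen. Kidney and lung also lay close together in this window, whereas Gpx3 was 6.66-fold higher in kidney. The high correlation therefore does not show a shared tissue pattern.

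Next came a stretch of chromosome X, also on the minus strand, from 159402001 to 159404000 (r = 0.985). It holds tags at the start of S100g, the calcium carrier calbindin of kidney and gut. Its levels were 1208 CPM in kidney, 158 CPM in lung and 34.2 CPM in ovary (1 tag), with no tag in liver, brain or spleen. The remaining windows, without a start tag of a named gene, began at 77778001 on chromosome 5 (r = 0.973), at 107138001 on chromosome 8 (r = 0.956) and at 159398001 on chromosome X (r = 0.947), all on the minus strand. The window on chromosome 5 had 2742 CPM in kidney, 683 CPM in lung and 342 CPM in ovary.

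Other genes of selenium and glutathione metabolism could be followed only at their transcript start. Over all 27025 genes with a RefSeq start sequence, 663 had a start tag (2.45%). Of 8 glutathione peroxidases 3 had a start tag. They were Gpx3 with the kidney tag above, Gpx4, which reduces lipid hydroperoxides in membranes, with 1 kidney and 3 lung tags, and Gpx8 with 1 lung tag. Of 20 other selenoproteins 2 had one, Selenow with 3 kidney, 16 lung and 1 brain tags and Selenos with 1 kidney tag. Of 7 genes of the selenocysteine machinery Pstk, the kinase that acts on the charged transfer RNA, had 1 kidney tag and 1 lung tag. Of 5 genes of glutathione supply none had a start tag, and 3 of these had a start sequence to match. None reached 20 tags in a library, and those named here are given because they are few, after their values were seen.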

How the data were processed

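Tags were aligned with Bowtie to mm9, per the submitters' processing notes, with no version or settings stated there. The deposited score is a browser display value, 70 per read up to 999 in 100% of lines, and was not used as a measurement. The analysis used the deposited read count of each tag sequence. MmeI tags follow 7 and then 25 PCR cycles, per the labels' protocols, and 99.9% of Gpx3 tags were 20 or 21 nt long. Tags on the minus strand were reverse complemented. Sequences listed at 2 locations in a library were left out, between 8.62% of tags in liver and 17.2% in spleen. This removed 14 kidney and 3 lung tags of Gpx3.

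Shares have Clopper-Pearson, levels Poisson and ratios conditional binomial intervals (95%, scipy 1.17.1). The limit for a count of 0 was 3 counts. Scripts were tested on simulated data. Marker and list genes were named by an exact match of 19 bases to the 50 transcribed bases of RefSeq promoter sequences (GRCm38.p6), and a gene could be found only where it had such a sequence. Reading frames were to come from an annotation or protein and were read from the tags instead. The ends named are the 10 with the most tags and, per library, the 5 strongest with at least 3 tags. Other rules named the 5 most similar windows and list genes with 20 tags in a library. The gene, the lists and the tests were chosen with earlier results of these data known.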

Additional observations from a re-analysis of the deposited data

Results flagged for a closer look

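On the opposite strand of the region, which no comparison above uses, lung had 19 tags, more than the 3 that a count of 0 allows. Kidney had 3 tags there, liver, brain and ovary 1 each and spleen 0. Per library this was 18.5 CPM in kidney, 38.5 CPM in lung, 12.7 CPM in liver, 30.0 CPM in brain and 34.2 CPM in ovary, so lung does not stand apart once depth is taken into account. The 19 lung tags began at 19 distinct ends between 54724310 and 54724606, beyond the last end of the Gpx3 stretches at 54723868. Tnip1 is the next coding gene after Gpx3 in RefSeq's gene order (GRCm38.p6), and whether these tags belong to it was not tested.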

How the results depend on the processing

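The kidney to lung ratio of Gpx3 (6.66) was 6.70 with tags listed at 2 locations and 6.65 between the first and last end of the stretches. With the 10 strongest ends of each library left out of the library totals, and the Gpx3 counts unchanged, it was 6.97. The ratio was 6.41 without the strongest end and 7.09 with a trimmed mean of M values. It was 5.07 with each distinct end counted once. Chosen after seeing the data, it was 5.53 with the trimmed mean over all windows, 9.21 over windows with at least 50 tags and 25.1 with stretch 5 left out. Kidney stayed above lung in all of these. Over the 3 trimmed means kidney over ovary ran from 28.7 to 50.8 and lung over ovary from 3.11 to 9.19, without a change of order. Base shares without the strongest end were also added after seeing the data. Counting each distinct end once, 67.8% of kidney and 85.6% of lung ends lay in the 3′ untranslated region. The cause of these shifts was not tested. The share of the strongest end was 7.28% within 1 nt and 6.74% with tags listed at 2 locations. The share of codon position 2, highest by kidney tags, was 34.6% by distinct ends and 31.7% without the strongest coding end. Position 3 was highest by distinct ends (37.4%) and position 1 without the strongest coding end (36.6%), so the order was not kept. Of the 5 most similar windows 3 were kept with log2(CPM + 1), and 3 with at least 50 tags. No paired analysis was possible because each tissue has 1 library. Depth limits liver, brain, spleen and ovary to their total levels, and lung to 36 tags before the stop.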

Other observations

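Ends of Gpx3 were compared with 1717 mature mouse microRNAs of RefSeq (GRCm38.p6), since sliced targets begin opposite nt 10 of a microRNA. Pairing of nt 2 to 19 was counted without gaps, with G-U pairs as mismatches. At the 10 strongest ends the best microRNA had between 5 and 7 mismatches in 18 bases. Over 412 ends of stretch 5 the fewest were 3, for mmu-miR-8117 at 54723454, an end with 5 tags. Such a match is a description and not a site.

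Tags outside the 5 stretches were few. They lay at 9 positions with 7 kidney and 2 lung tags, among them the tag near the transcript start, 1 kidney tag at 54721295 and 1 lung tag at 54721904 between stretches 2 and 3, and 6 tags after the last stretch. The last end before the region lay 19967 bases away with 1 ovary tag, the first end inside it was the kidney tag near the start, the last inside it was 1 lung tag at 54724999, and the next end after it, at 54725024, had 1 lung tag.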
